A study of Mus musculus with 15 samples.

Results

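The 9 genes Isl1, Isl2, Lhx1, Lhx3, Lhx4, Mnx1, Phox2a, Pou4f1 and Prph were taken by name, as genes of motor, sensory and autonomic (visceral) neurons, from the 30534 features counted in sections of mouse embryos. Sections were barcoded in place through crossed microfluidic channels, so that each crossing became a pixel with its own transcript counts. The 11 transcript libraries came from embryonic day 10 (E10) with pixels 50 µm wide (3 libraries), 25 µm (1) or 10 µm (2), from day 11 (E11) with pixels of 25 µm (2) or 10 µm (2), and from day 12 (E12) with pixels of 50 µm (1). A further 4 libraries of antibody tags belonged to 4 of the E10 sections. The labels name whole embryos and give no strain, genotype, sex, treatment or body level, so stage and the part of the body that a section held cannot be told apart. They do not say whether the libraries of a group came from separate embryos, so p-values measure only the spread between these libraries, which may be technical. Both groups of 1 library lack any replicate check.

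All of these genes but Prph encode transcription factors that set the identity of newborn neurons. Mnx1 (Hb9) marks spinal motor neurons, and the related LIM-homeodomain factors Lhx3 and Lhx4 act with the islet factors Isl1 and Isl2 to start the motor neuron programme. Lhx3 and Lhx4 are also used in V2 interneurons of the spinal cord and in the early pituitary. Pou4f1 (Brn3a) and Isl1 together mark sensory neurons of the cranial and dorsal root ganglia. Phox2a drives the noradrenergic and visceral motor programme of the hindbrain and of autonomic ganglia. Lhx1 is used by many interneurons, by some motor neurons and by the early kidney, and Isl1 is used outside the nervous system in heart precursors and the foregut. Prph encodes peripherin, an intermediate filament of neurons whose axons leave the central nervous system.

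The 250 bases before the RefSeq start (GRCm38.p6) are shown for the gene that marked motor pixels, for Lhx4, the member that rose most in them, and for the genes that marked sensory and visceral pixels. Capitals mark TAAT on either strand, a core that homeodomain proteins bind, and the E-box CANNTG, the core bound by proneural factors. In the order printed, the windows are chr5:29478471-29478720 (minus strand), chr1:155742028-155742277 (minus strand), chr14:104468000-104468249 (minus strand) and chr7:101818063-101818312 (plus strand).
Mnx1: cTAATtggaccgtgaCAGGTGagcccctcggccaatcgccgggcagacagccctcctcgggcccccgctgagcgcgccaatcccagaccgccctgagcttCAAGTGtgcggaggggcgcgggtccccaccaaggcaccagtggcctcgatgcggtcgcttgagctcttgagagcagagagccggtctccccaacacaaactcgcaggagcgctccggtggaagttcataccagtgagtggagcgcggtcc
Lhx4: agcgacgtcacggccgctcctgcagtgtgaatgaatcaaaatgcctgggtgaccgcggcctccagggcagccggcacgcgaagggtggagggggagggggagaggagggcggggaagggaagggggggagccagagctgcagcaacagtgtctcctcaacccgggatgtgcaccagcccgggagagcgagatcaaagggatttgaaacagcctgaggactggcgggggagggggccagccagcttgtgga
Pou4f1: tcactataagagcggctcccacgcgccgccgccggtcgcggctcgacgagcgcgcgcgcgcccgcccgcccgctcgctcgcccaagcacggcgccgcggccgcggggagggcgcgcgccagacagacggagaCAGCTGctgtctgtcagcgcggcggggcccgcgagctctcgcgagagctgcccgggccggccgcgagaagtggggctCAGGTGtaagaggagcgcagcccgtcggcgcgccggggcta
Phox2a: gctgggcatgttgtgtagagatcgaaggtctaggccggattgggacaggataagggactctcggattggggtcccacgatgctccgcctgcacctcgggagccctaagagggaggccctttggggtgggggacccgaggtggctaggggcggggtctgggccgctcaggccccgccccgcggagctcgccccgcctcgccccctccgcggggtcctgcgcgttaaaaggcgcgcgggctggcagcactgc
The Mnx1 window held 1 TAAT and 2 E-boxes and the Pou4f1 window 0 TAAT and 2 E-boxes, while neither motif was found in the Lhx4 and Phox2a windows. Of 32851 RefSeq windows of this length, 54.9% held TAAT and 66.2% held CANNTG, so these matches describe the letters only.

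In GENCODE M21 (GRCm38), used here for positions only, all 9 are protein-coding. On the minus strand lie Isl1 (chr13:116298281-116309689), Lhx1 (chr11:84518284-84525535), Lhx3 (chr2:26200212-26208289), Lhx4 (chr1:155698031-155751684), Mnx1 (chr5:29473034-29478470) and Pou4f1 (chr14:104461676-104467999). On the plus strand lie Isl2 (chr9:55538672-55546180), Phox2a (chr7:101818313-101822726) and Prph (chr15:99055174-99058978). An antisense gene overlaps Lhx3 (Gm27196) and Isl2 (Gm17226), and Inppl1 overlaps Phox2a on the other strand. Whether counting used strand is not given in the sources used here, so reads from those overlaps may be shared.

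Tissue pixels numbered 829 to 2271 per library, 17046 in all, and held 1563489 (E10 25 µm) to 11998765 counts (E10 10 µm replicate 1) per library. Levels are counts per 1000000 counts of those totals (CPM). Intervals and floors cover counting error only, and the floor of 3 counts ranged from 0.250 CPM to 1.92 CPM, the latter in the E10 25 µm library. The content of neurons moved with the groups: 12 pan-neuronal genes summed to 2265 to 3547 CPM at E10 50 µm, 1749 CPM at E10 25 µm, 899 and 904 CPM at E10 10 µm, 660 and 947 CPM at E11 25 µm, 515 and 277 CPM at E11 10 µm and 1166 CPM at E12. Its part in the differences between groups was not tested. In such sums, fewer neurons and less RNA per neuron cannot be told apart.

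Pooled over libraries, all 9 genes were sparse. Shares were higher at E10 50 µm (replicates 1, 2 and 3), where 33.9%, 23.3% and 50.7% of tissue pixels held Lhx1. Isl1 was in 17.8%, 20.0% and 21.0% of them and Pou4f1 in 20.5%, 21.0% and 21.5%. The pooled numbers follow. Isl1 was counted in 1306 tissue pixels (7.66%), Lhx1 in 1239 (7.27%), Pou4f1 in 841 (4.93%), Lhx4 in 376 (2.21%), Isl2 and Prph in 373 each (2.19%), Lhx3 in 192 (1.13%), Mnx1 in 96 (0.563%) and Phox2a in 72 (0.422%). Per kilobase of exon, the median level over the 11 libraries was highest for Isl1 (6.50 CPM per kb), followed by Prph (3.78), Lhx1 (3.03), Pou4f1 (2.96) and Isl2 (2.66). Lhx4 (0.590), Lhx3 (0.509), Mnx1 (0.293) and Phox2a (0.191) stood lowest on this scale. The ranges over libraries overlapped between all neighbours in this order.

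Of the motor genes, Mnx1 stood at 2.03, 1.43 and 0.658 CPM in the E10 50 µm libraries, at 6.12 and 4.82 CPM at E11 25 µm and at 2.15 CPM at E12. It had 0 counts in the E10 25 µm library and in both E10 10 µm libraries, which allows up to 1.92, 0.250 and 0.566 CPM. At E11 10 µm it had 0 counts in replicate 1, which allows up to 1.17 CPM, and 0.365 CPM in replicate 2. The E11 25 µm libraries were thus the highest and overlapped with no other group. The same libraries were highest in 2 lists of tissues in which Mnx1 is also known: the notochord and tail list summed to 44.8 and 42.6 CPM there and to 0.94 to 18.7 CPM elsewhere, and the foregut and pancreas list to 48.75 and 57.05 CPM there and 0.38 to 28.0 CPM elsewhere. Their part in the Mnx1 level was not tested.

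Lhx3 stood at 6.79, 1.55 and 3.29 CPM at E10 50 µm, 1.28 CPM at E10 25 µm, 3.83 and 0 CPM at E10 10 µm, 5.53 and 4.56 CPM at E11 25 µm, 0 and 0.729 CPM at E11 10 µm and 0.923 CPM at E12. Lhx4 stood at 18.9, 3.69 and 19.5 CPM at E10 50 µm, 3.20 CPM at E10 25 µm, 2.33 and 0 CPM at E10 10 µm, 5.72 and 9.38 CPM at E11 25 µm, 1.95 and 2.92 CPM at E11 10 µm and 3.38 CPM at E12. Replicate 2 of E10 50 µm was the low library of its group for both genes. The spread within E10 50 µm was therefore wide (Lhx3 3.88 ± 2.67 CPM and Lhx4 14.0 ± 8.93 CPM, SD, n = 3).

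Isl1 varied least within E10 50 µm, at 25.7, 29.8 and 24.8 CPM (26.8 ± 2.65, SD, n = 3), and stood at 46.1 CPM at E10 25 µm, 32.4 and 6.98 CPM at E10 10 µm, 25.3 and 31.4 CPM at E11 25 µm, 19.5 and 15.0 CPM at E11 10 µm and 39.8 CPM at E12. Isl2 was lowest and highest in the same libraries as Isl1, from 0.189 CPM in E10 10 µm replicate 2 to 17.3 CPM at E10 25 µm. Prph stood at 16.2, 8.46 and 4.42 CPM at E10 50 µm, at 8.09 and 7.55 CPM at E11 25 µm and at 17.1 CPM at E12, its highest level. Replicate 2 of E10 10 µm had 0 counts of Lhx3, Lhx4, Mnx1, Phox2a and Prph.

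The sensory factor Pou4f1 stood at 26.3, 34.6 and 27.6 CPM at E10 50 µm (29.5 ± 4.47, SD, n = 3), 30.1 CPM at E10 25 µm, 17.0 and 3.02 CPM at E10 10 µm, 7.11 and 7.55 CPM at E11 25 µm, 2.72 and 4.38 CPM at E11 10 µm and 13.8 CPM at E12. The E10 50 and 25 µm libraries lay above all others. The visceral factor Phox2a stood at 1.85, 1.43 and 1.69 CPM at E10 50 µm and reached 2.92 CPM at E12, its highest level. It had 0 counts at E10 25 µm, which allows up to 1.92 CPM, and stood at 0.0833 and 0 CPM at E10 10 µm. At E11 it stood at 0.197 and 0.130 CPM with 25 µm pixels (2 counts in all) and at 0.389 and 2.19 CPM with 10 µm pixels (7 counts in all). Lhx1 stood at 64.6, 59.9 and 109 CPM at E10 50 µm and at 2.19 to 16.9 CPM in the other 8 libraries, with no overlap.

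**Figure D1:**
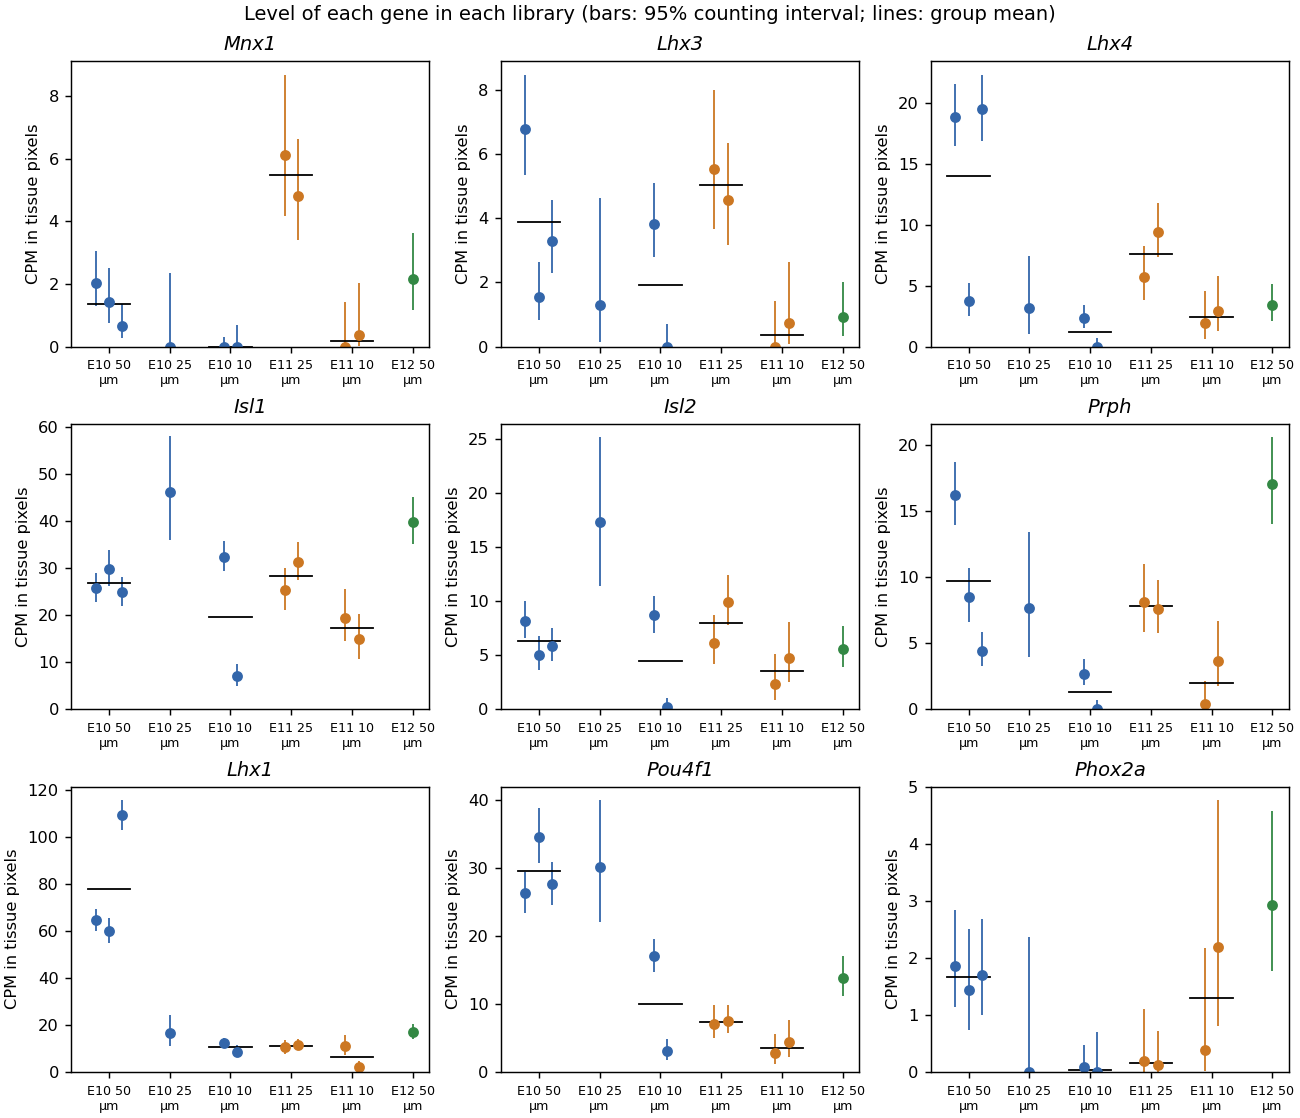
CPM in tissue pixels (vertical axes, from 0) of each gene in the 6 groups of stage and pixel width (horizontal axes). Points are libraries, vertical bars their 95% counting intervals and horizontal lines the means of groups with replicates; Mnx1 is highest in the E11 25 µm libraries (6.12 and 4.82 CPM) and Lhx1 in the E10 50 µm libraries (59.9 to 109 CPM).

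Library sums were compared with edgeR's quasi-likelihood test over 18233 genes, with Benjamini-Hochberg adjustment over all of them. Of the 9 members, Lhx1 alone was called in any of 6 comparisons: it was lower at E10 with 10 µm than with 50 µm pixels (log2 fold change -2.85, SE 0.47, adjusted p = 0.0480), where 0.11% of genes were called. In the same comparison Gap43 and Ina, 2 of the 12 pan-neuronal genes, and Slc18a3 of the motor list were called lower too, as was 1 of 13 genes of the visceral list. At an unadjusted p under 0.05 stood 6 of the 9 members, all lower (Lhx1, Lhx4, Mnx1, Phox2a, Pou4f1 and Prph). The Lhx1 call was lost with RLE size factors (adjusted p = 0.0515) and on leaving out a single library from among the 3 of E10 50 µm, the E10 25 µm library and both replicates of E10 10 µm and of E11 25 µm, with log2 fold changes of -3.06 to -2.51 over all alternatives. Pixel width and section cannot be told apart in this comparison.

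None of the 9 was called for E11 against E10 as the mean over 10 and 25 µm (background 3.6%), at 10 µm (3.33%) or at 25 µm (0.455%), for 10 against 25 µm at E11 (2.07%) or for E12 against E10 at 50 µm (2.14%). At an unadjusted p under 0.05 stood 2 members in each of the first 3 comparisons (Mnx1 and Pou4f1, Phox2a and Pou4f1, and Mnx1 and Pou4f1), 3 in the next (Mnx1, Lhx3 and Phox2a) and 1 in the last (Lhx1). DESeq2 called 1, 0, 0, 0 and 1 in the same order. Pou4f1 gave -1.67 for E11 against E10 (SE 0.48, adjusted p = 0.0759 by edgeR), beside which 6 of 12 pan-neuronal genes were called lower. Mnx1 came nearest to a call at E11, 10 against 25 µm (adjusted p = 0.0537 by edgeR). The stage changes at 10 and 25 µm were called different for none of the 9 by edgeR, where 25 of 18233 genes were (lowest adjusted p 0.652, for Lhx3, and none at an unadjusted p under 0.05; no other tool was run); for Mnx1, with 0 counts in all E10 libraries of these widths, that difference could not be estimated.

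Clustering within sections differed between genes and libraries. Moran's I, which is near 0 for a random scatter and positive where neighbouring pixels are alike, reached 0.41 for Lhx1 (E10 50 µm replicate 3), 0.35 for Isl1 and for Pou4f1 (E10 10 µm replicate 1), 0.35 for Isl2 (E11 25 µm replicate 2) and 0.33 for Lhx4 (E10 50 µm replicate 1). The highest values of Prph, Mnx1 and Phox2a were 0.26, 0.19 and 0.10, and that of Lhx3, 0.26, came from 2 pixels in the E10 25 µm library. Medians over libraries were 0.21 for Isl1 and Pou4f1, 0.23 for Lhx1, 0.11 for Lhx4, 0.09 for Isl2 and Prph, 0.08 for Lhx3, 0.07 for Mnx1 and -0.0001 for Phox2a. At E11 10 µm the values lay between -0.005 and 0.055 (Isl1 0.011 and 0.014, Pou4f1 -0.004 and -0.005), and Pou4f1 gave -0.006 in E10 10 µm replicate 2. In E10 50 µm replicate 1, 76 of 150 pixels with Lhx3 or Lhx4 formed 1 connected patch, which held 16 of that library's 23 Mnx1 counts. In E11 25 µm replicate 2, 15 of 67 such pixels formed a patch with 14 of 37 Mnx1 counts. In E10 10 µm replicate 1, the largest patches held 49 of 114 Pou4f1 pixels and 58 of 204 Isl1 pixels, and 51 pixels of that library held both genes.

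**Figure D2:**
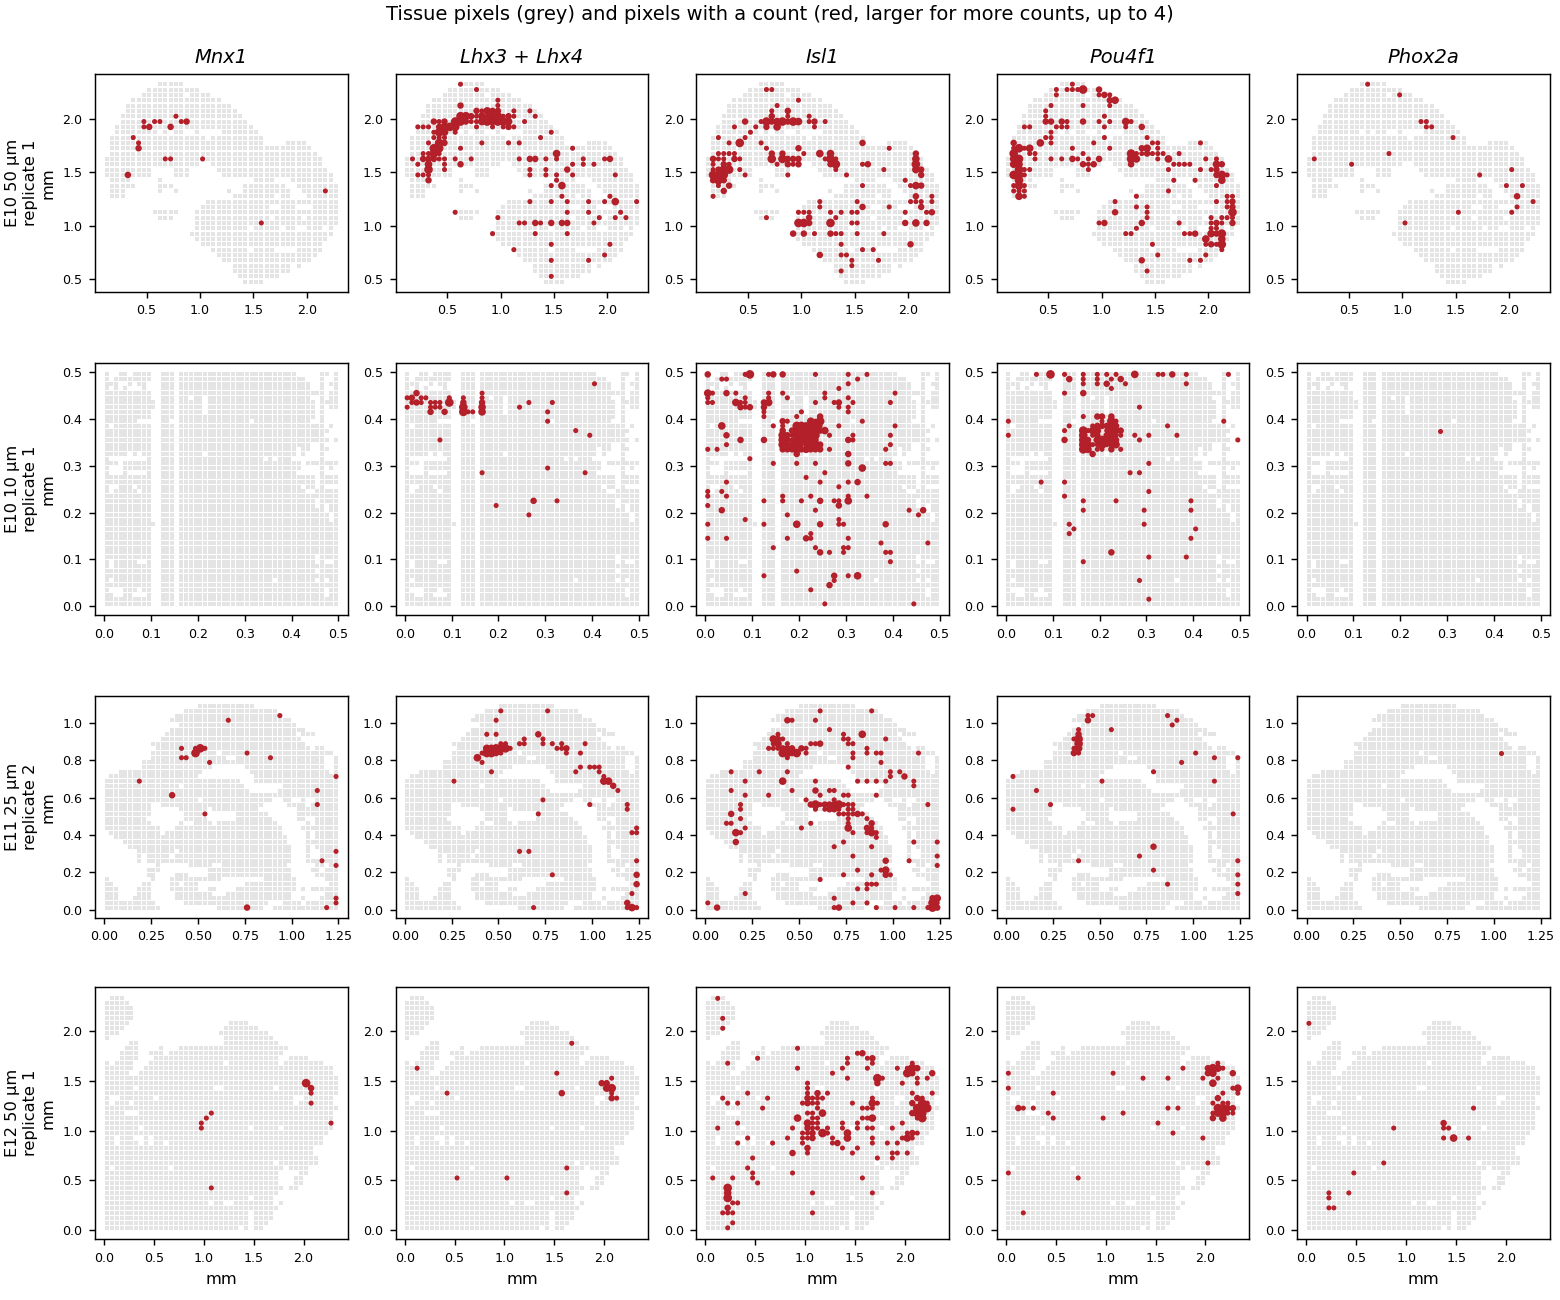
Maps of 4 libraries (rows) with position on the channel grid in mm on both axes, tissue pixels in grey and pixels with a count of the gene or genes named above each column in red, larger for more counts. The band of Lhx3 and Lhx4 in E10 50 µm replicate 1 holds 16 of 23 Mnx1 counts, and in E10 10 µm replicate 1, where Mnx1 has 0 counts, Isl1 and Pou4f1 share a compact patch.

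Co-location was measured by index pixels, the tissue pixels with at least 1 count of a given gene. Counts over index pixels and over the other tissue pixels were summed per library, where there were at least 10 of each, and compared by edgeR's quasi-likelihood test with the library as a block and adjustment over all genes. A pair tested from either gene is the same sharing seen from both sides. A filter on low counts took both kinds of pixels together. Any gene sparse in the other pixels, a member or not, could thus pass it through the index pixels, where it is high. Such calls, among them those of Lhx3, Lhx4, Mnx1 and sparse genes of the lists, are descriptions. Counts of list genes called higher among those tested are affected in the same way. Index pixels were mostly deeper than the others, with ratios of median total counts of 0.997 to 2.55 (median 1.51).

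Mnx1 pixels were rich in the motor set. There were 79 of them in 4 libraries, and 5 of 7 members tested were called higher and 0 lower, where 2.73% of 12584 genes were called higher. Lhx4 stood at 155, 70.8, 108 and 85.6 CPM in Mnx1 pixels of E10 50 µm replicate 1, E11 25 µm replicates 1 and 2 and E12, and at 14.4, 4.24, 7.19 and 2.34 CPM in the other pixels. No library overlapped (log2 fold change 3.82, SE 0.39, adjusted p = 9.43e-20 by edgeR, higher in 4 of 4). In the same order Isl2 stood at 27.7, 88.5, 181 and 97.8 CPM against 7.55, 4.24, 6.12 and 4.36 CPM (3.76, SE 0.43, adjusted p = 2.12e-15, 4 of 4).

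The other members of the motor set rose less. Lhx3 stood at 38.8, 61.9, 12.0 and 24.5 CPM in Mnx1 pixels against 5.73, 4.24, 4.39 and 0.623 CPM (2.92, SE 0.56, adjusted p = 1.29e-05 by edgeR, 4 of 4). Prph rose by 2.00 (SE 0.44, adjusted p = 0.000389) and Isl1 by 1.43 (SE 0.30, adjusted p = 0.000134), both in 4 of 4 libraries. These 5 calls held in all 10 alternatives run. In the other pixels of E12, Lhx4 and Lhx3 fell to 2.34 and 0.623 CPM. Both passed the filter on low counts with the Mnx1 pixels, where they are high, so their calls are descriptions. Of all 96 Mnx1 pixels, 36 (37.5%) held Lhx4, 34 (35.4%) Isl1, 28 (29.2%) Isl2 and 18 (18.8%) Lhx3, which were 9.57%, 2.60%, 7.51% and 9.38% of the pixels of those genes.

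Pou4f1, the sensory factor, gave no such rise. It stood at 30.5, 8.85, 0 and 12.2 CPM in Mnx1 pixels against 26.1, 7.07, 7.72 and 13.9 CPM, higher in 2 of 4 libraries (-0.15, SE 0.59, adjusted p = 0.950 by edgeR). Lhx1 was higher in 4 of 4 but not called (0.99, SE 0.37, adjusted p = 0.108). Phox2a had 0 counts in Mnx1 pixels, and since its level elsewhere (1.41 CPM) was under the 4.16 CPM that 3 counts would give, a difference was not detectable at this depth.

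In Mnx1 pixels 3 of 7 tested genes of the motor list were called higher and 0 lower. Slc18a3, the vesicular acetylcholine transporter, rose by 3.41 (SE 0.49, adjusted p = 4.36e-10 by edgeR, means of 56.7 against 4.40 CPM), Onecut1 by 2.77 and Nkx6-1, a factor of motor neuron progenitors, by 1.67. Slc18a3 and Onecut1 (1.38 to 6.26 CPM in the 4 whole libraries) were sparse outside Mnx1 pixels, so their calls are descriptions. The list's median was 1.67 and that of all genes tested -0.14. All 12 pan-neuronal genes were called higher, with a median of 2.20. Of the sensory list 1 of 10 was called higher (Neurod4, 2.35) and of the visceral list 2 of 10, the receptor gene Ret (2.94) and Th (2.19). All 6 tested heart muscle genes were called lower, as were 5 of 6 red cell genes. None of the 2 tested genes of either the notochord and tail or the foregut and pancreas list was called. In the library order above, the notochord and tail list summed to 13.86, 53.1, 66.23 and 48.91 CPM in Mnx1 pixels against 10.47, 44.62, 42.07 and 3.74 CPM. The foregut and pancreas list summed to 24.95, 44.25, 72.25 and 24.45 CPM against 13.2, 48.86, 56.71 and 5.14 CPM. At E12 these sums rest on 4 and 2 counts in Mnx1 pixels. The genes outside the set most like Mnx1, by size of rise among genes higher in all 4 libraries, were Rasgef1c (3.63), Nyap2 (3.53), Ecel1 (3.47), Nwd2 (3.44) and Slc18a3 (3.41). Rasgef1c and Nyap2 stood at means of 1.95 and 2.71 CPM in the other pixels, so their calls are descriptions too.

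Lhx3 and Lhx4 marked each other and Mnx1. In Lhx3 pixels (183 pixels, 6 libraries) 3 of 7 members were called higher, where 0.49% of genes were: Mnx1 by 2.58 (SE 0.47, adjusted p = 0.000358 by edgeR, 5 of 6 libraries), Lhx4 by 2.47 (SE 0.29, adjusted p = 2.72e-09, 6 of 6) and Lhx1 by 0.85 (SE 0.20, adjusted p = 0.0149, 5 of 6). The Lhx1 call was lost with DESeq2 and without E10 50 µm replicates 1 or 2 (adjusted p = 0.0940, 0.0516 and 0.148). Outside Lhx3 pixels Mnx1 stood at a median of 1.45 CPM in the 5 libraries that had it. It passed the filter on low counts through the Lhx3 pixels, where it is high, so its call is a description. In Lhx4 pixels (359 pixels, 7 libraries) 3 of 6 members were called higher, where 1.48% of genes were: Lhx3 by 2.48 (SE 0.36, adjusted p = 0.000123, 7 of 7), Prph by 1.76 (SE 0.28, adjusted p = 9e-05, 6 of 7) and Isl1 by 1.21 (SE 0.17, adjusted p = 1.16e-05, 7 of 7). Mnx1 was too sparse for the test there, at a median of 33.5 CPM in Lhx4 pixels against 0.937 CPM, and higher in 6 of the 6 libraries that had it.

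Pou4f1 was called in neither, with 0.05 (SE 0.28, adjusted p = 0.981 by edgeR) in Lhx3 pixels and -0.17 (SE 0.24, adjusted p = 0.809) in Lhx4 pixels. In Lhx4 pixels 3 of 6 motor genes were called higher, Slc18a3 (2.88, SE 0.30, adjusted p = 8.42e-09), Nkx6-1 (1.61, SE 0.15, adjusted p = 2.05e-09) and the proneural gene Neurog2 (0.78). In Lhx3 pixels 0 of 7 were called. Of the visceral list 2 of 9 were called higher in Lhx4 pixels and 0 of 9 in Lhx3 pixels, and of the sensory list 0 of 10 and 1 of 10. Of 12 pan-neuronal genes, 4 were called higher in Lhx3 pixels and 2 in Lhx4 pixels. The genes most alike were Ecel1 (1.57), Moxd1 (1.32), Rbfox1 (1.11), Lrrn3 (1.02) and Ngfr (1.01) for Lhx3, and Arhgap36 (2.11), St6galnac5 (1.74), Clvs1 (1.64), Sez6l2 (1.45) and Ngfr (1.35) for Lhx4.

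Replicate 1 of E10 10 µm departed from this pattern. In the 46 pixels of E10 10 µm replicate 1 with Lhx3 or Lhx4, genes of the early pituitary were high: Hesx1, a factor of the pituitary primordium and forebrain, had 29 counts (76.7 CPM against 2.84 CPM in other pixels) and Pitx1 had 42 (111 against 5.34 CPM). Six6 stood at 84.7 against 45.7 CPM. Mnx1 and Slc18a3 had 0 counts in those pixels, but only 0 and 2 counts in the others, so a difference could not be seen. Nkx6-1 stood at 7.94 against 20.2 CPM and the pan-neuronal gene Tubb3 at 84.7 against 135 CPM. Of the islet factors, Isl2 stood at 2.65 against 8.86 CPM and Isl1 at 52.9 against 31.8 CPM.

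In the 6 other libraries Hesx1 had 0 to 3 counts in Lhx3 or Lhx4 pixels. Slc18a3 stood there at 17.1, 18.7, 10.52, 41.6, 31.9 and 41.4 CPM (E10 50 µm replicates 1, 2 and 3, E11 25 µm replicates 1 and 2, E12) against 2.70, 3.56, 2.93, 5.98, 3.80 and 2.50 CPM, with no overlap. Mnx1 and Nkx6-1 were higher in those pixels in 6 of 6. The pixels were not rich in motor genes alone. A gene of the spinal interneuron list stood at 6.93, 1.87, 7.65, 0, 1.77 and 51.8 CPM in the same order. In the other pixels it stood at 0.56, 1.15, 3.51, 0.82, 1.12 and 0.62 CPM. Its values in E10 50 µm replicate 2 and E11 25 µm replicate 2 are a single count each. Without E10 10 µm replicate 1, 5 members in place of 3 were called higher in Lhx4 pixels. The pixels with both genes were pooled after their values had been seen and 1 library holds the pituitary genes, so this is a description with no test.

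**Figure D3:**
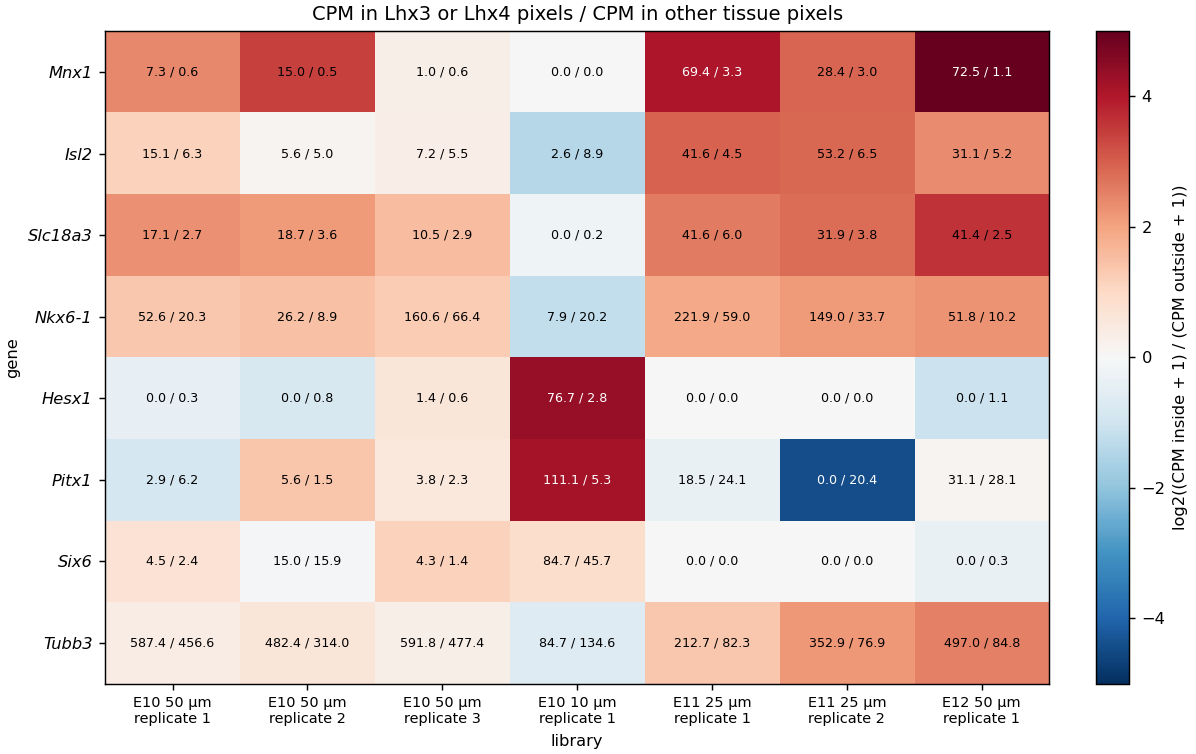
CPM in pixels with Lhx3 or Lhx4 and in other tissue pixels (the pair of values in each cell) for 8 genes (vertical axis) in the 7 libraries with at least 10 such pixels (horizontal axis). Colour is the log2 ratio with 1 CPM added to both; Hesx1 (76.7 against 2.84 CPM) and Pitx1 (111 against 5.34 CPM) stand out in E10 10 µm replicate 1, and Slc18a3 in the other 6.

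Pou4f1 pixels (834 pixels, 10 libraries) were rich in Isl1. Isl1 stood at 49.4, 39.7 and 30.2 CPM in them against 18, 26.1 and 22.7 CPM at E10 50 µm, at 172 against 42.7 CPM at E10 25 µm and at 171 against 19.2 CPM in E10 10 µm replicate 1. It stood at 97.8 and 62.1 against 23.3 and 30.3 CPM at E11 25 µm and at 239 against 29.7 CPM at E12. In E10 10 µm replicate 2 and E11 10 µm replicate 2, which had 14 and 11 Pou4f1 pixels, it had 0 counts in them. Isl1 was the 1 member of 4 tested that was called higher (1.66, SE 0.35, adjusted p = 0.0180 by edgeR, 8 of 10 libraries), where 2.98% of genes were called higher.

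That call was lost in 10 of 17 alternatives, with log2 fold changes of 1.30 to 2.39 throughout: with at least 2 counts in index pixels, with pixels above the median total, and on leaving out a single library, be it replicate 1 or 2 of E10 50 µm, the E10 25 µm library, replicate 2 of E10 10 µm, either library of E11 25 µm, replicate 2 of E11 10 µm or the E12 library. Seen from Isl1 pixels, the sharing was called (Pou4f1 1.67, SE 0.34, adjusted p = 0.0181 by edgeR, 8 of 11 libraries) and kept in 17 of 18 alternatives. Pixels with both genes numbered 263, 31.3% of Pou4f1 pixels and 20.1% of Isl1 pixels. Isl2 (1.70, adjusted p = 0.0761), Prph (1.58, adjusted p = 0.131) and Lhx1 (0.98, adjusted p = 0.0770) were not called. In the 53 Pou4f1 pixels of E12, Prph stood at 169 against 9.38 CPM and Isl2 at 76.4 against 1.94 CPM.

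Some genes of the sensory list and of crest and glia lay in the same pixels, to a degree that differed between libraries. The sensory list summed to 296, 313 and 240 CPM at E10 50 µm against 224, 199 and 213 CPM, and to 787 against 292 CPM at E10 25 µm. At E10 10 µm it summed to 624 and 68.1 against 187 and 143 CPM, and at E11 25 µm to 414 and 454 against 97.7 and 148 CPM. In E11 10 µm replicate 2 it summed to 246 against 96.3 CPM and at E12 to 1044 against 189 CPM. Of 10 tested genes of the sensory list 3 were called higher and 0 lower, among them Neurod1, a neurogenic factor (2.03, SE 0.51, adjusted p = 0.0470 by edgeR), and Ntrk3, the receptor of neurotrophin-3 (1.33). Of 5 crest and glia genes 4 were called higher, among them Sox10 (1.5, means of 23.5 against 6.87 CPM), Erbb3 (0.82) and Tfap2a (0.77). The medians of these lists were 0.74 and 0.82, and that of all genes -0.04. The crest and glia sum was lower in Pou4f1 pixels of E10 50 µm replicate 3 (351 against 372 CPM), E10 10 µm replicate 2 (227 against 294 CPM) and E11 10 µm replicate 2 (0 against 21.3 CPM), and higher in the others. The retina list was higher in those of E10 50 µm replicate 3 (296 against 211 CPM) and E10 10 µm replicate 2 (409 against 272 CPM), and in no other library. Of 5 motor genes 0 were called higher and 1, Foxp1, lower (-0.32). All 12 pan-neuronal genes were called higher. Stmn2 (1.41), Ebf2 (0.89), Klf7 (0.77), Tmem2 (0.57) and Klc1 (0.52) were the genes most like Pou4f1.

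Phox2a pixels (64 pixels in the 3 E10 50 µm libraries and E12) gave no call for any other member. Of 7 tested, 0 were called higher or lower by edgeR, where 0.357% of genes were called higher, and DESeq2 called 0 higher. At an unadjusted p under 0.05 stood 2, Lhx1 (0.55, SE 0.21, adjusted p = 0.331) and Isl2. Isl1 stood at 42.2, 19.1, 18.5 and 130 CPM in Phox2a pixels of E10 50 µm replicates 1, 2 and 3 and E12, against 25.3, 29.9, 25.1 and 38.3 CPM, higher in 2 of 4. Isl2 had 0 counts there and 233 elsewhere (6.48 CPM), at least 1.94-fold lower against a floor of 3 counts over all 4 libraries. Mnx1 had 0 counts too, with 1.56 CPM elsewhere under a floor of 3.34 CPM. Of all 72 Phox2a pixels, 33 (45.8%) held Lhx1, 22 (30.6%) Isl1 and 20 (27.8%) Pou4f1, and 0 held Mnx1 or Isl2. Of all tissue pixels of the same 4 libraries, in the order above, 33.9%, 23.3%, 50.7% and 3.6% held Lhx1. Isl1 was in 17.8%, 20.0%, 21.0% and 10.7%, and Pou4f1 in 20.5%, 21.0%, 21.5% and 3.5%. Isl2 was in 8.4%, 4.6%, 6.0% and 1.5%. Mnx1 was in 2.1% in E10 50 µm replicate 1 and in 0.7% at E12.

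Phox2a pixels held genes of the visceral programme, most of all in the single E12 library. The visceral list summed to 1453 CPM there against 143 CPM in the other pixels. At E10 50 µm (replicates 1, 2 and 3) it summed to 208, 248 and 312 against 186, 145 and 244 CPM. Dbh, the enzyme that makes noradrenaline from dopamine, rose by 2.82 (SE 0.43, adjusted p = 2.89e-08 by edgeR, means of 103 against 8.36 CPM, 3 of 4 libraries). It was among 2 of 10 tested genes of the visceral list called higher, with a list median of 1.11 and -0.08 over all genes. Of the pan-neuronal list 9 of 12 were called higher, of the motor list 1 of 8 (Neurog2, 0.95) and of the sensory list 1 of 10 (Ntrk3, 0.90). Among the most alike genes were the neuropeptide gene Cartpt (2.57), Fstl5 (1.72), Rgs4 (1.55) and Robo3 (1.42).

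Isl1, Isl2 and Prph shared pixels with one another. In Isl1 pixels (1306 pixels, 11 libraries) all 5 tested members were called higher, where 2.79% of genes were: beside Pou4f1, these were Prph (1.88, SE 0.18, adjusted p = 1.36e-13 by edgeR), Isl2 (1.86, SE 0.20, adjusted p = 5.03e-10), Lhx4 (1.5, SE 0.19, adjusted p = 1.77e-08) and Lhx1 (0.42, SE 0.13, adjusted p = 0.0365). The Lhx1 call was lost in 8 of 18 alternatives. In Isl2 pixels (366 pixels, 9 libraries) Prph (2.25, SE 0.27) and Isl1 (1.73, SE 0.18) were called among 4 tested, where 2.23% of genes were. In Prph pixels (372 pixels, 9 libraries) Isl2 (1.87, SE 0.25) and Isl1 (1.62, SE 0.15) were called among 4, where 2.7% of genes were. Calls among Isl1, Isl2 and Prph held in every alternative that gave a value for the pair.

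The levels of other members in Isl2 pixels are given by library, with no test of a difference between libraries. In Isl2 pixels of E11 25 µm replicate 2, Mnx1 stood at 76.8 CPM, Lhx4 at 131 CPM and Pou4f1 at 3.84 CPM. In those of E10 10 µm replicate 1, Pou4f1 stood at 81.9 CPM. In those of E12, Pou4f1 stood at 174 CPM, Prph at 186 CPM and Mnx1 at 36.0 CPM. Over libraries, Pou4f1 in Isl2 pixels was not called (1.73, SE 0.44, adjusted p = 0.0847 by edgeR, 7 of 9).

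Lists read in Isl1 pixels drew on each neuron set: 3 of 9 sensory genes were called higher (among them Neurod1 1.69 and Ntrk3 1.23), 4 of 9 visceral genes (among them Th 1.26, Ret 1.1 and Insm1 0.53), 1 of 4 motor genes (Nkx6-1 0.44) and 11 of 12 pan-neuronal genes. Of the lists for other cells that use Isl1, 0 of 6 heart muscle genes and 0 of 3 pharyngeal mesoderm genes were called, and 0 of the foregut and pancreas genes had enough counts to be tested. The heart muscle sum went in both directions. It stood at 10411 CPM in Isl1 pixels against 4701 CPM in E11 10 µm replicate 2, where the pan-neuronal sum was 223 against 278 CPM, and at 2398 against 1622 CPM in E10 10 µm replicate 1. At E11 25 µm it stood at 515 and 389 against 2602 and 2045 CPM. The neurofilament gene Nefm led the genes most like Isl1 (1.56) and Prph (1.86), and Nefl, another neurofilament gene, those most like Isl2 (2.16).

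Lhx1 pixels (1233 pixels, 10 libraries) carried genes of the spinal interneuron list. The labels give no body level, so this does not place the pixels in the spinal cord. Of 6 tested genes of the list, 4 were called higher and 0 lower: Lhx5, the close relative of Lhx1 (1.75, SE 0.33, adjusted p = 0.00188 by edgeR), Bhlhe22 (1.74), En1, in the spinal cord a marker of V1 interneurons (1.36), and Pax2 (1.15). In these 10 whole libraries Lhx5 stood at 1.08 to 17.1 CPM, En1 at 0 to 19.2 CPM and Pax2 at 1.17 to 11.7 CPM. Genes this sparse could pass the filter on low counts through the Lhx1 pixels, so these calls and their count are descriptions. The list's median was 1.25 and that of all genes -0.04. All 12 pan-neuronal genes were called higher, and 5.13% of all genes. Of 5 tested members 3 were called higher: Prph (1.04, SE 0.22, adjusted p = 0.000606), Isl2 (0.82, SE 0.26, adjusted p = 0.0277) and Lhx4 (1.64, SE 0.45, adjusted p = 0.0492). Of these, Lhx4 was lost in 9, Isl2 in 6 and Prph in 1 of 16 alternatives, and without E10 50 µm replicate 1 only 1 member was called. Of the other neuron lists, 3 of 6 motor, 3 of 10 sensory and 4 of 9 visceral genes were called higher, and 0, 2 and 1 lower. Of 2 tested nephric genes 0 were called higher and Osr1 lower (-1.18). Rab3c (1.77), Ina (1.75), Mapt (1.63), Dcx (1.60) and Hecw1 (1.60) were most alike.

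**Figure D4:**
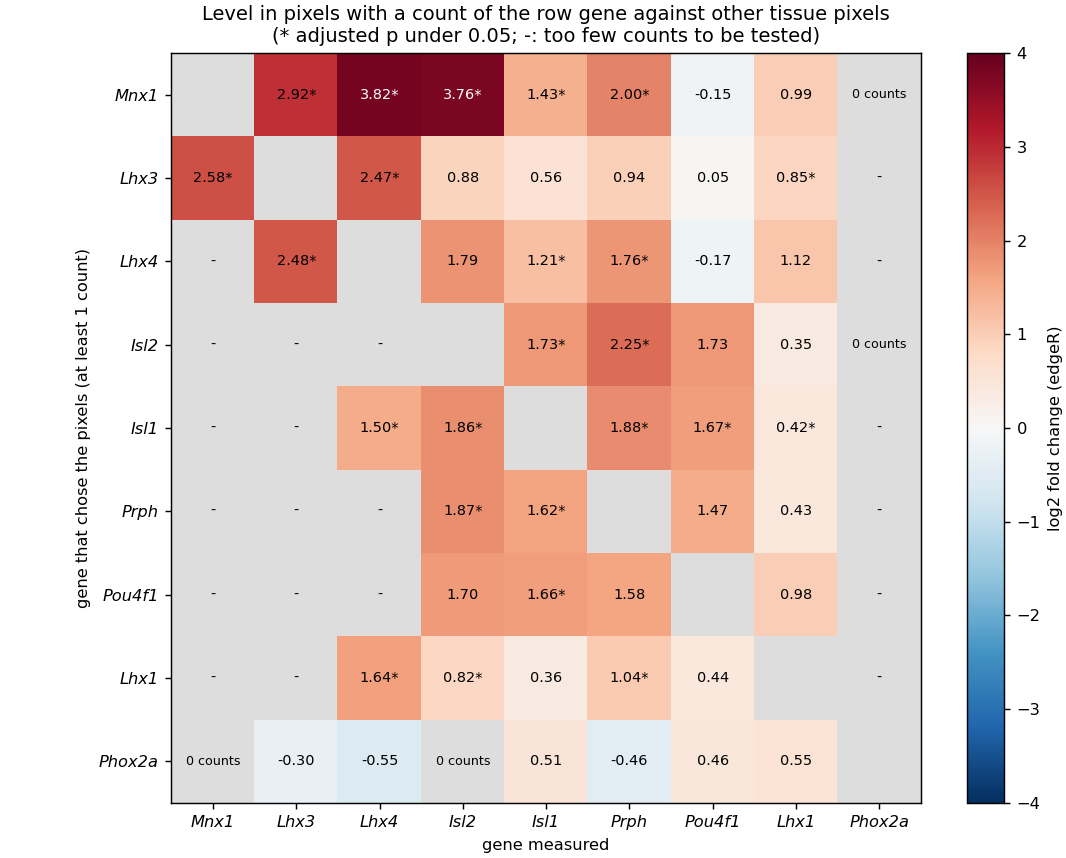
Log2 fold change from edgeR of each gene (columns) in pixels with at least 1 count of another (rows) against other tissue pixels. Asterisks mark an adjusted p under 0.05, a dash too few counts for the test, and 0 counts pairs that shared none; the largest values are Lhx4 (3.82) and Isl2 (3.76) in Mnx1 pixels.

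To set the 3 neuron sets against each other, log2 ratios in Mnx1, Pou4f1 and Phox2a pixels were compared for 6 genes by an exact sign-flip test, 18 differences in all. With 1 to 4 libraries each, the smallest p this test allows is 0.125, so none could pass: 0 of 18 did, and 0 at an unadjusted p under 0.05. Lhx4 was higher in Mnx1 than in Pou4f1 pixels by 3.83 ± 1.11 (SD, n = 4 libraries, exact two-sided p = 0.125, adjusted 0.5625). In E11 25 µm replicate 1 it had 0 counts in Pou4f1 pixels, so the 0.5 counts added set that ratio. The differences of Isl2 against Phox2a pixels are left out, since Isl2 had 0 counts in all of those pixels, and so are those of Prph, at 0 counts there in 2 of 4 libraries. Isl1 differed between Mnx1 and Pou4f1 pixels by -0.39 ± 1.45 (SD, n = 4, exact p = 1).

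A further fit, chosen after the data were seen, took pixels with a count of only 1 of the 3 genes (at least 5 a library) and tested 4400 genes with edgeR. Lhx4 stood at 172, 68.8, 28.6, 74.4, 108 and 102 CPM in Mnx1 pixels of E10 50 µm replicates 1, 2 and 3, E11 25 µm replicates 1 and 2 and E12, and at 18.6, 2.70, 12.6, 0, 19.4 and 3.32 CPM in Pou4f1 pixels. The value of E10 50 µm replicate 3 is a single count. All 6 libraries were higher in Mnx1 pixels, by 3.29 (SE 0.46) in the fit. Lhx4 passed the filter on low counts only with the Mnx1 pixels, where it is high, so the call it had there (1 of 3 members, where 1.09% of genes were called) is a description. The same holds against Phox2a pixels (3.80, SE 0.79, higher in 4 of 4 libraries, 1 of 3 members where 0.386% of genes were called). With no filter on low counts, added later still, Lhx4 was called in both, by 3.13 (SE 0.40, adjusted p = 2.92e-11 over 22448 genes by edgeR) and 3.76 (SE 0.68, adjusted p = 9.14e-05). Without E10 50 µm replicate 1 or E11 25 µm replicate 2, Lhx4 had too few counts to pass the filter and 0 members were called in either.

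Isl1 and Lhx1 were called in none of these comparisons. Between Mnx1 and Pou4f1 pixels they gave -0.29 (SE 0.40, adjusted p = 0.854 by edgeR) and 0.09 (SE 0.28, adjusted p = 0.945). Pou4f1 against Phox2a pixels gave 0 of 3 members at an adjusted or an unadjusted p under 0.05, where 0.0227% of genes were called. Of the lists, Nkx6-1 (1.51, adjusted p = 0.00640, 6 of 6 libraries) and Foxp1 (0.65, adjusted p = 0.0448, 5 of 6) were called higher in Mnx1 than in Pou4f1 pixels. With no filter Nkx6-1 was called (adjusted p = 0.00464) and Foxp1 was not (0.46, adjusted p = 0.469). Of 3 tested sensory genes 0 were called. The 1 tested gene of the retina list was called lower in Mnx1 pixels (means of 9.07 against 67.8 CPM). It passed the filter on low counts only with the Pou4f1 pixels, where it is high, so this is a description.

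**Figure D5:**
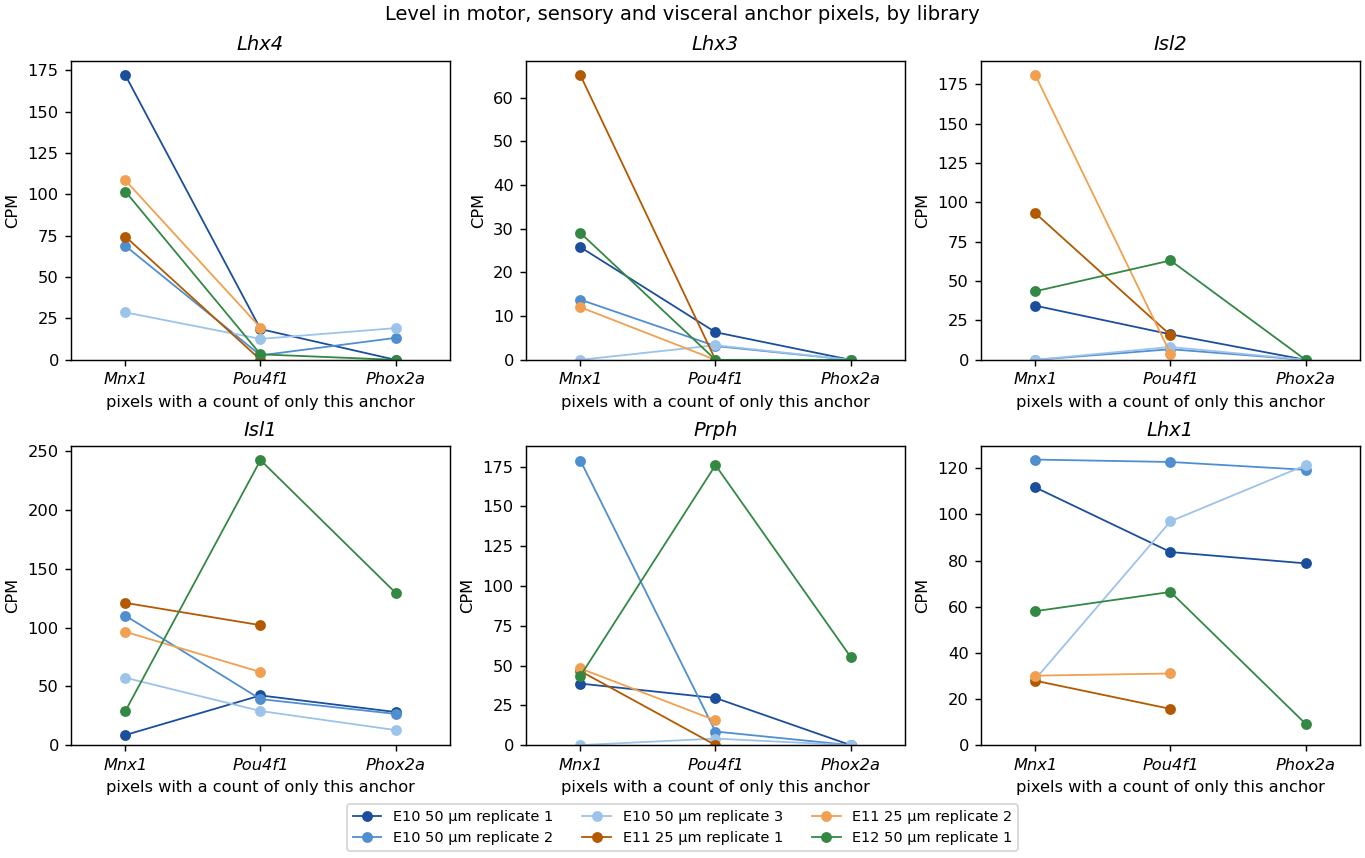
CPM (vertical axes, from 0) of 6 genes in pixels with a count of only Mnx1, only Pou4f1 or only Phox2a (horizontal axes), with a line for each of the 6 libraries with at least 5 such Mnx1 pixels. Lhx4 is higher in Mnx1 than in Pou4f1 pixels in all 6 (28.6 to 172 against 0 to 19.4 CPM), whereas the lines of Isl1, Prph and Lhx1 cross.

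Antibody tags could be read beside Isl1, Lhx1 and Pou4f1 in all 4 E10 sections with tags, as log2 ratios of an antibody's share of all 22 antibodies between index and other pixels. Of these 66 ratios 12 had the same sign in 4 of 4 sections, 5 higher and 7 lower, some of them close to 0. The panendothelial antigen, found on blood vessels, was lower in pixels of all 3 genes in 4 of 4 sections (-0.32 to -0.08 for Isl1, -0.24 to -0.03 for Lhx1 and -0.56 to -0.01 for Pou4f1). ESAM, an endothelial adhesion protein, was lower for Isl1 (-0.26 to -0.06) and Lhx1 (-0.21 to -0.03) in 4 of 4. Higher in 4 of 4 were Ep-CAM (0.05 to 0.60) for Isl1, Notch1 for Isl1 (0.004 to 0.09) and Lhx1 (0.01 to 0.22), EPCR (0.06 to 0.24) for Lhx1 and MAdCAM-1 (0.02 to 0.40) for Pou4f1. The erythroid antigen Ly76 (-0.345 to -0.082) and CD63 (-0.17 to -0.09) were lower for Lhx1. Agreement of 4 signs also arises by chance, and the shares of the 22 antibodies depend on each other. These ratios are a description, with no test.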

How the data were processed

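The deposited tables hold the authors' transcript counts per pixel, as whole numbers, and counts of antibody tags. The submitters' processing notes name CASAVA 1.8.2 and the build GRCh38, with no role given; aligner, annotation and duplicate removal are not given in the sources used here. Columns of 15 Ensembl identifiers were merged with their symbols. A pixel counted as tissue when its total reached 0.1 times the 95th percentile in its library. Sums per library were fitted in edgeR 4.0.16 (R 4.3.3, quasi-likelihood, TMM, filter on low counts, 6 group means, 5 residual degrees of freedom), and index pixels with the library as a block; scripts were tested on simulated data. Anchor ratios had 0.5 counts added to each sum. DESeq2 1.42.0 was an alternative. Named were the members, called genes of 16 lists (120 genes) and up to 5 non-members per gene with the largest rise, called, higher in every library and at a mean of at least 10 CPM. Members and lists were chosen with earlier results of these data known. Some genes of the lists are counted but not reported here by name.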

Additional observations from a re-analysis of the deposited data

How the results depend on the processing

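Of single-gene calls, 312 values kept their direction and side of the threshold, 47 lost the call and 0 reversed. Counts of called members moved as follows. With DESeq2 they were 1 for E11 against E10 (mean of both widths), 3 for E10 10 against 50 µm, 1 for E12, 5 in Lhx4 pixels and 2 in Pou4f1 pixels. RLE size factors gave 0 for E10 10 against 50 µm. With no filter on low counts they were 1 for each E11 against E10 comparison and for E12, 6 for E10 10 against 50 µm, 2 for E11 10 against 25 µm, 6 in Isl2, 4 in Pou4f1 and 4 in Prph pixels, and 3 for Mnx1 against Phox2a pixels. All pixels of the file gave 2 in Pou4f1 pixels. At least 2 counts in index pixels gave 4 in Isl2, 0 in Lhx1, 6 in Lhx4, 0 in Pou4f1 and 5 in Prph pixels, and could not be run for Lhx3, Mnx1 and Phox2a. Pixels above the median total gave 1 in Isl2, 0 in Pou4f1 and 4 in Prph pixels. Leaving out grid neighbours gave 3 in Isl1, 1 in Isl2 and 4 in Pou4f1 pixels. The cause of these moves was not tested.

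Without 1 library at a time, called members ranged from 3 to 5 in Isl1, 2 to 3 in Isl2, 1 to 5 in Lhx1, 2 to 3 in Lhx3, 3 to 5 in Lhx4, 5 to 5 in Mnx1, 0 to 0 in Phox2a, 0 to 3 in Pou4f1 and 1 to 4 in Prph pixels. They ranged from 0 to 3 for E10 10 against 50 µm, 0 to 1 for E11 10 against 25 µm, 0 to 1 for E11 against E10 as a mean, 0 to 2 at 10 µm, 0 to 0 at 25 µm and 0 to 1 for E12, and from 0 to 1 for Mnx1 against Pou4f1 or Phox2a pixels, 0 to 0 for Pou4f1 against Phox2a pixels and 0 to 0 for the sign-flip differences. Libraries behind these moves, beyond those named with the results, were E10 50 µm replicate 1, E11 25 µm replicate 1 or 2 (3 in Isl1 pixels), E10 50 µm replicate 3 (5 in Lhx1, 5 in Lhx4 and 3 in Pou4f1 pixels), E10 50 µm replicate 1 (1 in Prph pixels), E12 (4 in Prph and 2 in Pou4f1 pixels) and E10 10 µm replicate 1 (2 in Pou4f1 pixels, 3 for E10 10 against 50 µm). Without E10 10 µm replicate 2, 1 was called for E11 against E10 as a mean and at 10 µm, and without E11 10 µm replicate 1, 2 at 10 µm. Without either E10 10 µm library 1 was called for E11 10 against 25 µm, and without either E11 10 µm library 1 for E12.

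With the replicate number as a block, 0 of 9 members were called for E11 10 against 25 µm, as without it. Deviations of same-numbered E11 libraries correlated at 0.054 over 2 pairs, too few to tell whether the numbers pair them. Depth limits Mnx1 and Phox2a most, at 125 and 80 counts in all.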
